A study of Mus musculus with 4 samples.

Results

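The 10 genes described here encode ligand-activated nuclear receptors for retinoids, vitamin D, oxysterols, fatty acids and glucocorticoids: Rara, Rarg, Rxra, Rxrb, Vdr, Nr1h2, Nr1h3, Nr3c1, Ppard and Pparg. They and the gene lists below were chosen by gene symbol, with earlier results of these data known. All 10 receptor genes were found among the 50600 features counted. RNA was measured in regulatory T cells, CD4+ T cells that restrain immune responses, as primary cells of mouse strain C57BL/6NJ. The labels give 1 group of 4 libraries, biological replicates 1 to 4, with age unknown and sex not collected, and link a protocol for CD4+ T cell differentiation. The output names in the file headers include the words activated and 24h, and no agent or dose is stated. All 4 carry the same donor identifier, and no label ties a replicate to an animal or a culture of its own, so any p-value reflects the scatter among these 4 libraries alone. The library protocol is named for polyA+ RNA while the assay is named total RNA-seq. No control group enters, and every value below is a level in these cells, a difference between genes within a library, or a spread between libraries.

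Nuclear receptors are transcription factors that bind DNA at short hexamer repeats and exchange corepressors for coactivators when a small lipophilic ligand enters the ligand pocket. Retinoic acid receptors, the vitamin D receptor, liver X receptors and peroxisome proliferator-activated receptors bind DNA as heterodimers with a retinoid X receptor, whereas the glucocorticoid receptor binds as a homodimer. In T cells, retinoic acid together with TGF-beta is known to favour Foxp3 expression and gut homing, and vitamin D and glucocorticoids are known as immune suppressive hormones.

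Depth was 38590127, 44357436, 48312918 and 93035969 fragments assigned to genes in replicates 1 to 4. Levels are TPM, the fragments of a gene divided by its exon length and scaled to 1 fixed total in each library, which allows comparison between genes. All 12 genes listed as regulatory T cell markers had a mean of at least 1 TPM. The list includes Cd4, Cd3e, Cd3g and Trac, which are not particular to regulatory T cells. Foxp3 had 109 ± 14.5, Il2ra 702 ± 44.1 and Ctla4 245 ± 26.5 TPM (SD, n = 4). The lowest of the 12 was Ikzf2, at 4.32 ± 0.788 TPM. Of 10 macrophage and monocyte markers 2 reached 1 TPM, Cd68 and Adgre1, and Lyz2, C1qa and Ms4a7 had no fragment. Batf3 was 1 of 7 dendritic cell markers at or above 1 TPM, Cd79b and Cd79a were 2 of 6 B cell markers, Cd8b1 and Cd8a both CD8 markers, at 21.8 and 1.11 TPM, and no neutrophil or mast cell marker had a fragment. The share of TPM in coding genes was lowest in replicate 1, at 88.2%, and 95.6% to 96.6% elsewhere. Although all carry 1 donor identifier, the libraries fell into pairs by Xist, the RNA of the inactive X chromosome, with 100.4, 88.7, 0.716 and 0.603 TPM in replicates 1 to 4, and by the Y-linked gene Ddx3y, with 0.159, 0.101, 46.1 and 40.6 TPM. By these values replicates 1 and 2 are not repeat libraries of the RNA of replicates 3 and 4, while the spread within each pair may be technical.

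Of the 10 receptor genes, 8 averaged more than 10 TPM and 2, Nr1h3 and Pparg, averaged less than 1 TPM, although Nr1h3 averaged 1.02 TPM without replicate 2. Among all 50600 features, 10095 protein-coding genes had at least 1 TPM in every library. Counts of genes at or above 1 or 10 TPM, here and below, were not compared with a share of all genes. In bulk RNA, fewer cells with a transcript and less of it per cell cannot be told apart. The median over the 12396 genes that passed the filter on low counts was 23.2 TPM, and Rxra, Rara, Rxrb, Nr1h2 and Ppard lay above it. The order by mean TPM was Rxra, Rara, Rxrb, Nr1h2, Ppard, Vdr, Nr3c1, Rarg, Nr1h3 and Pparg. Of the 9 pairs of neighbours in this order, 6 kept their order in all 4 libraries. The ranges over libraries overlapped for 4 pairs of neighbours: Rxra with Rara, Rxrb with Nr1h2, Vdr with Nr3c1, and Nr1h3 with Pparg.

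**Figure D1:**
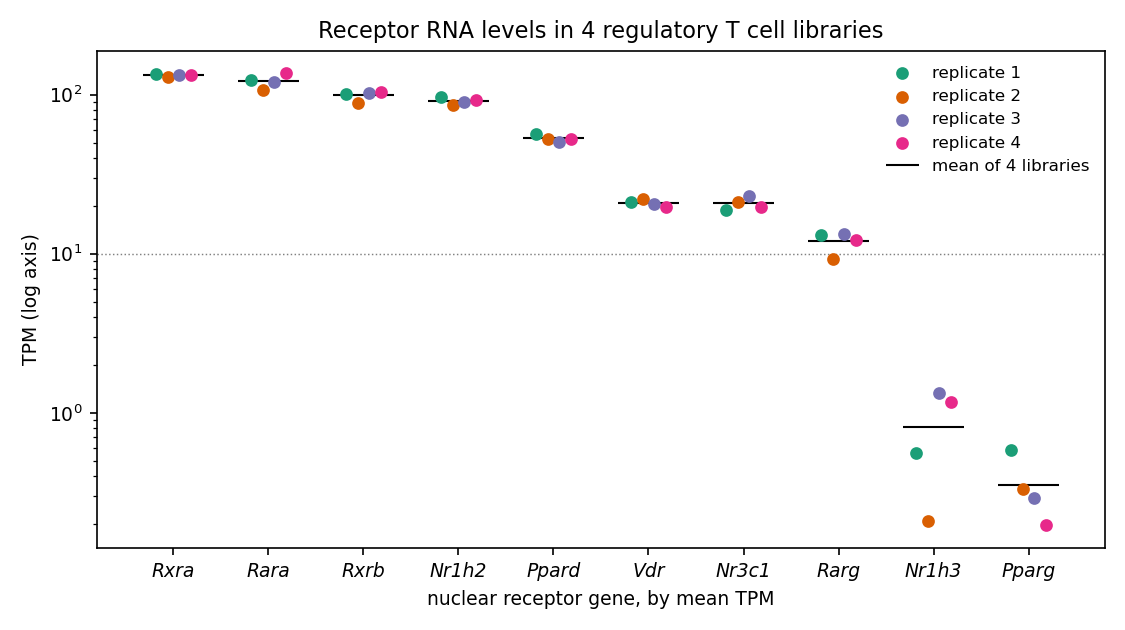
TPM of the 10 receptor genes on a log axis, with 1 point for each of the 4 regulatory T cell libraries and a line at their mean; the dotted line marks 10 TPM. Rxra, Rara, Rxrb and Nr1h2 lie near 100 TPM, and Nr1h3 and Pparg are the only 2 of the 10 with means under 1 TPM and the widest relative spread.

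Both common partners, Rxra and Rxrb, were abundant. Rxra encodes the retinoid X receptor alpha (ENSMUSG00000015846.14, mm10 chromosome 2, 27676440 to 27762957, plus strand, 14 exon blocks). It had 134.8, 128.8, 132.4 and 133.4 TPM in replicates 1 to 4, a mean of 132.3 ± 2.56 (SD, n = 4). Its coefficient of variation by TPM was the lowest of the 10, at 1.93%. The median was 9.07% over the genes that passed the filter, at all levels of abundance. This spread depends on the scaling: over protein-coding genes alone Rxra had 140.7 ± 8.23 TPM. In the edgeR fit, its dispersion over that of genes of like abundance was 0.977, and Nr3c1 had a lower ratio, 0.675. Rxrb encodes the beta form (ENSMUSG00000039656.16, chromosome 17, 34031812 to 34038393, plus strand, 7 exon blocks). Its levels were 100.4, 88.5, 101.7 and 104.5 TPM, a mean of 98.7 ± 7.06, lowest in replicate 2. Rxra exceeded Rxrb by 0.42 ± 0.08 on the log2 scale (SD, n = 4), or 1.28 to 1.46 times per library, and the ranges of the pair did not overlap. Rxrg, the gamma form, had no fragment in any library, which at 3 fragments allows no more than 0.0322 CPM in the deepest library and 0.0777 CPM in the shallowest (CPM, a gene's fragments scaled by the library's total, with no division by length). Summed over genes, the pair of retinoid X receptors had 231 ± 9.35 TPM and their 7 partners among these genes, Rara, Rarg, Vdr, Nr1h2, Nr1h3, Ppard and Pparg, 300.1 ± 17.5 TPM. The ratio of retinoid X receptor RNA to partner RNA was 0.771 ± 0.0201, between 0.751 and 0.792 in the 4 libraries.

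Among the retinoic acid receptors the alpha form dominated. Rara (ENSMUSG00000037992.16, chromosome 11, 98927818 to 98974942, plus strand, 14 exon blocks) had 124.2, 106.9, 120.1 and 136.1 TPM, a mean of 121.8 ± 12.03 (SD, n = 4), lowest in replicate 2 and highest in replicate 4. Rarg, the gamma form (ENSMUSG00000001288.14, chromosome 15, 102234938 to 102257517, minus strand, 14 exon blocks), had 13.1, 9.33, 13.4 and 12.1 TPM, a mean of 11.99 ± 1.85, also lowest in replicate 2. Rara exceeded Rarg by 3.35 ± 0.17 on the log2 scale, 9.00 to 11.5 times, in 4 of 4 libraries. Rarb, the beta form, which retinoic acid is known to induce in many tissues, had no fragment in any library.

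Retinoid uptake and binding genes had the highest levels among retinoid genes, and those for making retinoic acid from retinal were at or near 0. Of 17 genes for retinoid transport, binding, synthesis and breakdown, 6 had a mean of at least 1 TPM and 4 reached 10 TPM, and the median was 0.0366 TPM. Fabp5, a fatty acid binding protein that also carries retinoic acid, had 71.4 ± 3.92 TPM (SD, n = 4). Stra6, the cell-surface receptor that takes up retinol, had 48.6, 49.8, 52.5 and 59.3 TPM. Crabp2, which delivers retinoic acid to its receptors in the nucleus, had 42.2, 57.0, 36.0 and 42.8 TPM, highest in replicate 2. Rdh11, a retinal reductase gene, had 42.9 ± 2.59 TPM and Rdh10, the retinol dehydrogenase of retinoic acid synthesis, 9.07 ± 0.613. Of the retinal dehydrogenases, Aldh1a1 and Aldh1a3 had no fragment and Aldh1a2 averaged 0.0319 TPM. Of the enzymes that break it down, Cyp26b1 had no fragment, and Cyp26a1 had 0, 2, 0 and 3 fragments.

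Genes known as retinoic acid targets ranged from no fragment to well above 10 TPM. Of 11 listed, 6 averaged at least 1 TPM and 4 at least 10 TPM, with a median of 1.06 TPM. Itgb7, the beta chain of a gut-homing integrin, had 80.2 ± 6.43 TPM (SD, n = 4), followed by Stra6 and Crabp2, which are on both lists, and by the corepressor Nrip1 at 19.7 ± 1.75. Ccr9, the gut-homing chemokine receptor, had 8, 0, 2 and 3 fragments.

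The promoters of Rarb and Cyp26a1 are shown because they hold the textbook retinoic acid response element beside genes that were at or near 0 here. The motif searched on both strands was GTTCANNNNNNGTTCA, a direct repeat of GTTCA with 6 bases between the units, in the 250 bases before each RefSeq start (GRCm38.p6). It occurred at 22 of 32851 starts, or 0.0670%. Of the 23 retinoid genes on the 2 lists, 16 had a start in the table and 2 of these, Rarb and Cyp26a1, held the repeat. In Rarb it lies on the gene's strand, 36 bases before the start, and in Cyp26a1 on the opposite strand, 16 bases before it. Capitals mark the repeat in each window, written 5′ to 3′ on the gene's strand, chr14:16575477-16575726 (minus strand) and chr19:37697558-37697807 (plus strand).
Rarb: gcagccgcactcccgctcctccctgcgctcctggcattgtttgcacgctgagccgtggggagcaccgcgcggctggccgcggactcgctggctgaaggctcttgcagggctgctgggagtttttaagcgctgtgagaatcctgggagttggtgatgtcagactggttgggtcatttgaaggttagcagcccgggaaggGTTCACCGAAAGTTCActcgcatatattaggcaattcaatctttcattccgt
Cyp26a1: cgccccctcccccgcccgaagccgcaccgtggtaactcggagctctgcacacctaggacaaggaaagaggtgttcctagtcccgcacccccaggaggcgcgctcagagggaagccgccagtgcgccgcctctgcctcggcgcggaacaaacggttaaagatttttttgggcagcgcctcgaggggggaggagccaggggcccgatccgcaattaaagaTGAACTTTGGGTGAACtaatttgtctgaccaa
None of the 4 Stra6 starts in the table held the repeat within its window. A match is a stretch of letters and was not tested for binding in these cells.

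Vdr was expressed at a moderate level, while most genes of vitamin D handling had no fragment. Vdr encodes the vitamin D receptor (ENSMUSG00000022479.15, chromosome 15, 97854425 to 97910630, minus strand, 14 exon blocks) and had 21.2, 22.1, 20.5 and 19.6 TPM, a mean of 20.9 ± 1.05 (SD, n = 4). The 4 libraries differed little, with a coefficient of variation of 5.05%. Of 11 genes for vitamin D activation, uptake, breakdown and known response, 1 averaged 1 TPM or more, the 25-hydroxylase gene Cyp2r1 at 1.52 ± 0.241 TPM. Cyp27b1, the 1-alpha hydroxylase that makes the active hormone, followed with 0.418, 1.08, 0.360 and 0.831 TPM. Cyp24a1, the breakdown enzyme that the active hormone induces in many cells, had no fragment in any library, and 7 of the 11 genes had none.

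Of the pair of liver X receptors, which sense oxysterols and induce cholesterol efflux genes, Nr1h2 carried nearly all the RNA. Nr1h2 encodes the beta form (ENSMUSG00000060601.13, chromosome 7, 44549616 to 44553951, minus strand, 7 exon blocks) and had 96.6, 86.0, 89.7 and 92.3 TPM, a mean of 91.2 ± 4.44 (SD, n = 4). Nr1h3, the alpha form known from liver and macrophages (ENSMUSG00000002108.10, chromosome 2, 91184061 to 91202834, minus strand, 9 exon blocks), had 0.559, 0.210, 1.33 and 1.17 TPM, from 17, 7, 47 and 81 fragments. Replicates 3 and 4 were higher than replicates 1 and 2. The 95% exact Poisson intervals, which cover counting error only, were 0.326 to 0.895 TPM in replicate 1, 0.0843 to 0.432 in replicate 2, 0.978 to 1.77 in replicate 3 and 0.928 to 1.45 in replicate 4. Those of replicates 3 and 4 did not overlap those of replicates 1 and 2.

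Nr1h3 did not pass the filter on low counts and so was not tested over all 4 libraries with the filter on. In the edgeR fit without the filter its variability between libraries had an adjusted p of 0.8294 (unadjusted p = 0.0259). Without replicate 2 it passed the filter, with an edgeR adjusted p of 0.996 (unadjusted p = 0.259). The summed level of the 10 macrophage and monocyte markers was higher in replicates 1 and 2. It was 9.00, 7.40, 5.46 and 6.22 TPM in replicates 1 to 4. Most of this sum was 1 gene, Cd68, at 7.11, 5.45, 4.19 and 4.99 TPM. The pairs of libraries are those that Xist and Ddx3y separate, and the part of either difference in the Nr1h3 values was not tested. A stretch of 34 bp of the Nr1h3 exons overlaps Gm13783 on the same strand, where fragments cannot be assigned to either gene, and the other 9 receptor genes share no exon with another gene.

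Nr1h2 exceeded Nr1h3 by 7.08 ± 1.16 on the log2 scale (SD, n = 4), 67.4 to 410.4 times, in 4 of 4 libraries. The 250 bases before the RefSeq start of each gene are shown to set the abundant and the scarce paralog side by side, with every CpG in capitals. They lie at chr7:44553966-44554215 and chr2:91195117-91195366 (GRCm38.p6, both minus strand, 5′ to 3′ on the gene's strand), and for Nr1h3 the farther upstream of its 2 starts is used.
Nr1h2: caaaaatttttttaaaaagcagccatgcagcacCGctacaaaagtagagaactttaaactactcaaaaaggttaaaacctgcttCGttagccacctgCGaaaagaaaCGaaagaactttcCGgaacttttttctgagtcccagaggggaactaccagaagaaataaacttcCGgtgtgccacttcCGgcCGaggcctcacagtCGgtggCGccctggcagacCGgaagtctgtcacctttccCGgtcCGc
Nr1h3: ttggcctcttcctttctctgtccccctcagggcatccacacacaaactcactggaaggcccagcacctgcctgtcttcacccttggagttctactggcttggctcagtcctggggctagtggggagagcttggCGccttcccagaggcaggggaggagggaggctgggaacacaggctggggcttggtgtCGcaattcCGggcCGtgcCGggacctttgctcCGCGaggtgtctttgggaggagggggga
The Nr1h2 window holds 13 CpG and the Nr1h3 window 7, against a median of 6 over all 32851 starts, and GC content is 48.4% and 63.2%. The Nr1h3 window lies inside the counted gene, which reaches 91202834, whereas the Nr1h2 window lies outside its gene.

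Known liver X receptor targets were mostly expressed. Of 16 listed, 11 averaged at least 1 TPM and 7 at least 10 TPM, with a median of 7.66 TPM. The 3 highest were lipogenic genes: Scd2, a stearoyl-CoA desaturase, had 332 ± 40.1 TPM (SD, n = 4), Fasn, the fatty acid synthase, 324 ± 26.5, and Srebf1, the transcription factor that drives them, 117 ± 4.77. These 3 are also controlled by sterol regulatory proteins independently of liver X receptors. The phospholipid remodelling enzyme gene Lpcat3 followed at 63.9 ± 5.72 TPM. The lipogenic paralog Scd1, at 16.9 ± 2.72 TPM, was near the cholesterol efflux transporter Abcg1, at 15.9 ± 1.71, and the transporter Abca1 had 6.08 ± 1.04 TPM. Abcg5, Abcg8, Cyp7a1 and Lpl, known from liver, gut or fat, had no fragment. Of 8 genes that make or handle oxysterols, 4 averaged 1 TPM or more, led by Npc2 at 105 ± 7.77 TPM and Osbp at 61.8 ± 3.16 TPM, both sterol binding proteins, and by the lysosomal cholesterol exporter Npc1 at 13.9 ± 0.748. The oxysterol-making hydroxylase gene Cyp27a1 had no fragment.

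Ppard had the highest level of the 3 peroxisome proliferator-activated receptor genes. It encodes the delta form, a fatty acid sensor linked to fatty acid oxidation (ENSMUSG00000002250.15, chromosome 17, 28232754 to 28301469, plus strand, 10 exon blocks), and had 56.8, 52.3, 50.1 and 53.0 TPM, a mean of 53.1 ± 2.75 (SD, n = 4). Pparg, the gamma form known from fat and from visceral adipose tissue regulatory T cells (ENSMUSG00000000440.12, chromosome 6, 115360951 to 115490399, plus strand, 13 exon blocks), had 0.588, 0.331, 0.290 and 0.197 TPM. These values rest on 21, 13, 12 and 16 fragments. The 95% exact Poisson intervals, which cover counting error only, ran from 0.364 to 0.899 TPM in replicate 1 down to 0.112 to 0.319 in replicate 4. The intervals of these extreme libraries did not overlap. In the edgeR fit without the filter on low counts, Pparg had an adjusted p of 0.961 for variability between libraries (unadjusted p = 0.586). Ppard exceeded Pparg by 7.30 ± 0.60 on the log2 scale (SD, n = 4), 96.5 to 269 times, in 4 of 4 libraries. Ppara, the alpha form known from liver, averaged 0.0279 TPM.

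Among known targets of these receptors, oxidation genes had the highest levels and fat cell genes had no fragment. Of 17 genes, 8 averaged at least 1 TPM and 7 at least 10 TPM, with a median of 0.200 TPM. The oxidation enzymes Acadl and Acaa2 had 112 ± 5.52 and 91.6 ± 6.41 TPM (SD, n = 4), and Cpt1a, the carnitine palmitoyltransferase of the mitochondrial outer membrane, 20.4 ± 1.18. Angptl4, a secreted lipase inhibitor, had 19.1 ± 1.10 TPM. Pdk4, induced by the delta form in muscle, had 0, 0, 1 and 3 fragments. Fabp4, Adipoq, Plin1, Cidec and Lpl had no fragment, and Fabp4, Adipoq and Plin1 are also the fat cell markers examined. The 8 markers of fat, stromal and epithelial cells summed to between 1.45 and 3.22 TPM per library, with Epcam the only one whose mean was above 1 TPM. The sum was lowest in replicate 1, where Pparg was highest, as were the sums of the dendritic, B cell and CD8 markers. That of the macrophage and monocyte markers, mostly Cd68, was highest in replicate 1. It was 9.00, 7.40, 5.46 and 6.22 TPM in replicates 1 to 4. The part of any of these sums in the Pparg values was not tested. The fatty acid transporter Cd36 averaged 0.200 TPM.

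Nr3c1, the glucocorticoid receptor gene (ENSMUSG00000024431.14, chromosome 18, 39410545 to 39491301, minus strand, 12 exon blocks), was at the level of Vdr. It had 18.9, 21.1, 23.2 and 19.8 TPM, a mean of 20.7 ± 1.86 (SD, n = 4), and was above Vdr in 2 of 4 libraries. Of 14 known target genes, 10 averaged at least 1 TPM and 5 at least 10 TPM, with a median of 6.53 TPM. Nfkbia, the inhibitor of NF-kappaB, had 986 ± 31.6 TPM, Ddit4, an inhibitor of mTOR signalling, 229 ± 16.3, and Fkbp5, the cochaperone that dampens the receptor, 56.7 ± 1.83. Dusp1 had 51.7 ± 1.51 TPM and Per1 29.0 ± 3.01. Tsc22d3, which encodes the glucocorticoid-induced leucine zipper, had 5.24 ± 0.627 TPM. Nfkbia and Ddit4 also respond to many other signals, and the part of the receptor in the level of any of these genes was not tested. Tat, a liver target, had no fragment.

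The chaperones that hold the glucocorticoid receptor ready for ligand were among the most abundant genes named here. Of 10 genes for chaperones and for steroid conversion before the receptor, 9 averaged at least 1 TPM and 8 at least 10 TPM, with a median of 499.8 TPM. Hsp90ab1 had 7650.4 ± 456 TPM, Hspa8 2185 ± 129 and Hsp90aa1 1058 ± 93.9 (SD, n = 4). Hsd11b1, the enzyme that regenerates active glucocorticoid, had 1.38, 0.815, 2.01 and 1.26 TPM, and Hsd11b2, which inactivates it, averaged 0.502 TPM.

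**Figure D2:**
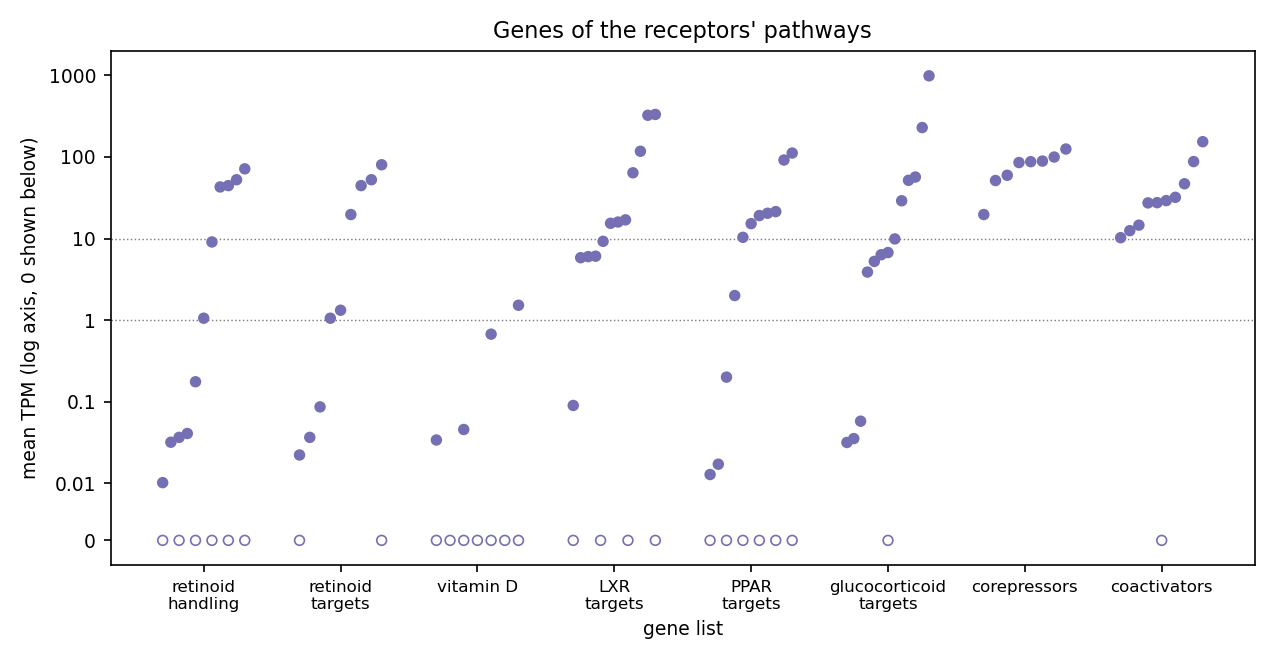
Mean TPM over 4 libraries, on a log axis, of each gene in 8 lists of receptor pathways and cofactors; open circles at the bottom are genes with no fragment, and dotted lines mark 1 and 10 TPM. All 8 corepressors lie above 10 TPM, and 7 of 11 vitamin D genes lie at 0.

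All but 1 of the listed cofactors of these receptors averaged at least 10 TPM. All 8 corepressor genes averaged at least 10 TPM, with a median of 86.4 TPM: Gps2 had 125 ± 8.68, Sin3a 99.6 ± 4.46 and Hdac3, the deacetylase of the corepressor complex, 88.9 ± 5.90 TPM (SD, n = 4). Of 11 coactivators, 10 averaged at least 10 TPM, with a median of 27.5 TPM, led by the methyltransferase Carm1 at 154 ± 6.38, Ncoa3 at 87.7 ± 5.66 and the Mediator subunit Med1 at 46.9 ± 1.399. Ppargc1a, the coactivator known for mitochondrial biogenesis in muscle and brown fat, had no fragment, while its relative Ppargc1b averaged 10.2 ± 2.12 TPM.

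Within the nuclear receptor superfamily of 49 genes, the 10 receptors held 41.0%, 38.3%, 38.0% and 40.7% of summed TPM in replicates 1 to 4, a mean of 39.5 ± 1.56% (SD, n = 4). The superfamily total was 1397 ± 46.4 TPM, and the orphan receptors Nr4a1 and Nr4a3, early response genes of T cell receptor signalling, held ranks 1 and 2 with 381 ± 22.7 and 286 ± 14.6 TPM. Without the 3 Nr4a genes the share was 76.0 ± 0.571%. Rxra, Rara, Rxrb, Nr1h2 and Ppard took ranks 3 to 7. Of the 39 other nuclear receptors, 7 averaged at least 10 TPM, 14 at least 1 TPM and 22 had no fragment in any library.

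**Figure D3:**
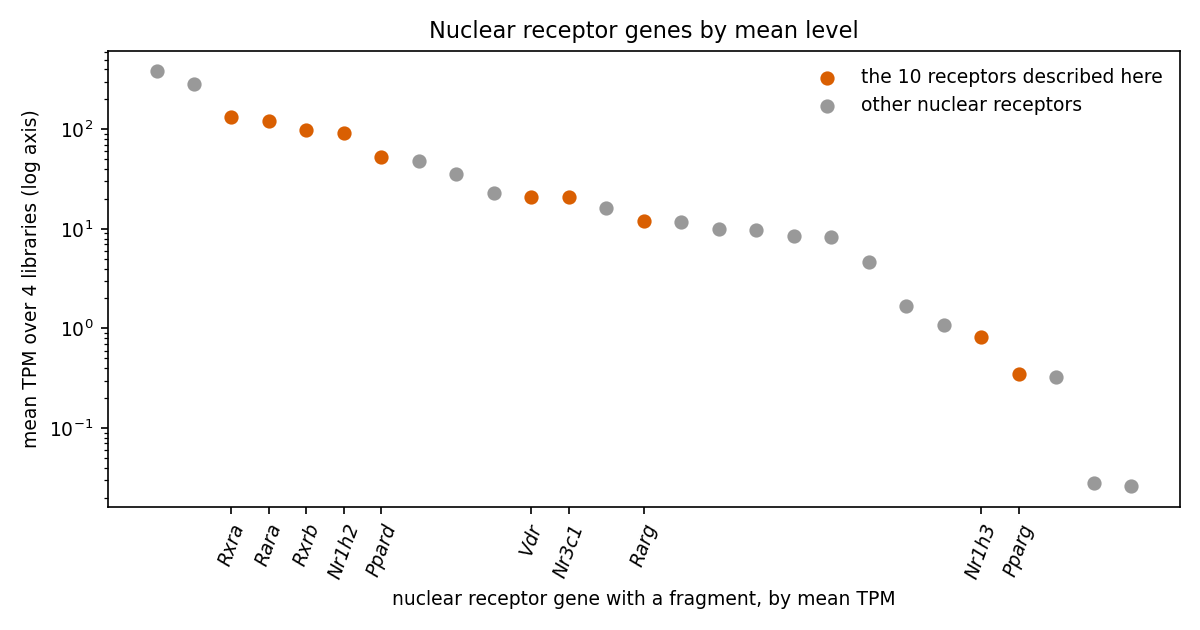
Mean TPM over 4 libraries, on a log axis, of the nuclear receptor genes with at least 1 fragment, in order of level; the 10 receptors described here are orange and named, and other nuclear receptors are grey. Of the 10, Rxra, Rara, Rxrb, Nr1h2 and Ppard fill ranks 3 to 7 behind Nr4a1 and Nr4a3, and Nr1h3 and Pparg sit at ranks 23 and 24.

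In each of the 4 pairs of paralogs, the same gene was higher in 4 of 4 libraries. The gap was smallest for Rxra minus Rxrb, at 0.42, 0.54, 0.38 and 0.35 on the log2 scale in replicates 1 to 4. It was 7.39, 8.58, 6.06 and 6.29 for Nr1h2 minus Nr1h3 and 6.56, 7.25, 7.38 and 8.03 for Ppard minus Pparg, with the larger gap for Nr1h2 minus Nr1h3 in replicates 1 and 2 and for Ppard minus Pparg in replicates 3 and 4. By exact permutation of the signs, two-sided, each pair gave the smallest p that 4 libraries allow, 2 of 16 sign assignments, before and after adjustment over the 4 pairs, so no pair could pass 0.05. The SD was largest for the 2 pairs whose lower gene, Nr1h3 or Pparg, had 7 to 81 fragments per library.

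**Figure D4:**
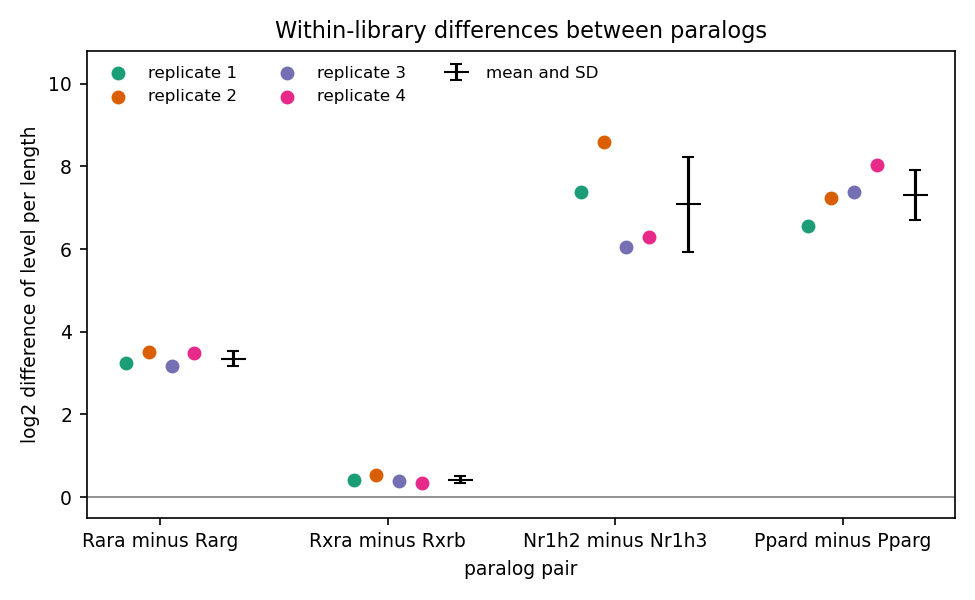
Log2 difference in level per length between paralogs within each library, with 1 point for each of 4 libraries and the mean and SD beside them; 0 marks equal levels. All 16 points lie above 0, near 0.42 for Rxra minus Rxrb and above 6 for Nr1h2 minus Nr1h3 and for Ppard minus Pparg.

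None of the 8 receptor genes that passed the filter on low counts varied between libraries beyond genes of like abundance, by edgeR's quasi-likelihood dispersion at a Benjamini-Hochberg adjusted p of 0.05. The test called 58 of 12396 genes, or 0.468%. The lowest adjusted p among the 8 was 0.784 for Rara (unadjusted p = 0.0160), and the next 0.926 for Rarg (unadjusted p = 0.0453), so 2 of 8 were under 0.05 unadjusted, against 5.33% of all genes tested. DESeq2 marked none of the 10 as a dispersion outlier. Replicate 2 was the lowest library for 6 of the 10 genes by TPM. The share of all genes that were lowest in replicate 2 was not computed. Of the 153 distinct genes of the pathway, cofactor and superfamily lists, 85 were tested. The lowest adjusted p among these was that of the coactivator Crebbp, with 31.2, 22.8, 29.4 and 26.5 TPM and an edgeR adjusted p of 0.0757.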

How the data were processed

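RNA was sequenced in 4 libraries of 1 group. The deposited values are raw fragment counts per gene, made by the authors with featureCounts 1.4.6-p4 on GENCODE mouse release 13, paired ends, strand setting 2, with no option for multi-mapping or multi-overlapping reads, per the file headers; the assembly is mm10, per the labels. No aligner or version is stated in the labels. The deposited tables also give exon union lengths in bp.

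TPM was computed from counts and lengths. Names came from GENCODE release 21 (50376 of 50600 IDs matched), promoters from RefSeq on GRCm38.p6, where 9 of the 10 members have a start. The members and gene lists were chosen with earlier results of these data known. Named are all members, the 3 highest genes of each list, the lowest where under 1 TPM, and a few chosen after their values were seen; a few list genes are left unreported.

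Variability between libraries was tested across all genes (R 4.3.3, edgeR 4.0.16, TMM scaling after filterByExpr, intercept-only quasi-likelihood fit, robust prior, upper tail of F, Benjamini-Hochberg at 0.05). The alternative was DESeq2 1.42.0, and the test was tested on simulated data. The common biological coefficient of variation was 10.7%. Other scalings, lengths, filters and each library left out were tried. Intervals and the limit of 3 fragments for a count of 0 cover counting error only.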

Additional observations from a re-analysis of the deposited data

How the results depend on the processing

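The direction of all 4 paralog differences was the same under every alternative run: a prior count of 3, no division by length, an effective length 200 bp shorter, and each library left out. The receptors' percent of superfamily TPM was within 1 SD under the effective length and without each library. FPKM, which has another scale, gave 0.297 to 0.303 times the TPM values. It put 5 receptor genes at 10 or more, against 8 by TPM, an alternative chosen after seeing the data. Scaling to protein-coding genes alone gave 1.05 to 1.08 times, and 4 of the 10 levels moved by more than 1 SD. Under the effective length 6 of 10 did. The SD depends on the scaling too. Over coding genes alone it rose for Rxra from 2.56 to 8.23 TPM and for Nr1h2 from 4.44 to 8.67, and fell for Nr3c1 from 1.86 to 1.47. The count of genes variable between libraries, 58 in all, was 110 without the filter on low counts, 36 with a non-robust prior, 94 as DESeq2 dispersion outliers, and 37 to 69 with each library left out (37 without replicate 1). No receptor gene was called under any of these, with adjusted p from 0.459 to 0.997 for those tested. Nr1h3 and Pparg, with 7 to 81 and 12 to 21 fragments, are limited by depth. No paired analysis was possible because there is 1 group.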

Other observations

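CpG content of the promoters varied among the receptors. In the 250 bases before the farthest upstream RefSeq start, Rxra had 40 CpG, Rxrb 31, Ppard 22, Rara 13, Nr1h2 13, Vdr 11, Rarg 11 and Nr1h3 7, while Pparg, with the lowest level, had 38. The farthest downstream of 3 Pparg starts had 2 CpG, and the counts do not say which start was used. The windows of Rara, Rxra, Vdr and Nr1h3 lie inside the counted genes, downstream of their annotated 5′ ends. The hexamer AGGTCA, searched on both strands, lay in 4 of 18 windows of these receptors, at Rarg, Rxra and both upstream Pparg starts, against 14.0% of all windows, and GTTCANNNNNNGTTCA in none of them.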
